A study of Mus musculus with 6 samples.

Results

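The circadian clock is a loop of transcription and translation that runs in nearly every cell, adipocytes included. The activators CLOCK and BMAL1 bind E-box elements (CACGTG) and switch on the period genes (*Per1*, *Per2*, *Per3*) and the cryptochrome genes (*Cry1*, *Cry2*), whose proteins return to the nucleus and repress the same activators. The loop passes its rhythm on through output factors that share one target, the D-box: the proline and acidic amino acid-rich (PAR) bZIP activators DBP, TEF and HLF, and their competitor NFIL3 (E4BP4), which represses there. The 10 genes named here, *Clock*, *Per1*, *Per2*, *Per3*, *Cry1*, *Cry2*, *Dbp*, *Tef*, *Hlf* and *Nfil3*, were taken by their symbols from the 56884 genes of the deposited tables. All 10 passed the filter on low values.

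RNA was sequenced from 2 groups of a mouse stromal vascular fraction (SVF) cell line. SVF cells are the non-adipocyte cells of fat, progenitors among them, and this immortalized line comes from subcutaneous white adipose tissue (scWAT). Each group stably carries a retroviral vector (pMXs-Puro) for HA-tagged mouse PPARγ2, the master regulator of fat cell formation, with 1 lysine changed either to glutamine (K382Q), which imitates the acetylated residue, or to arginine (K382R), which imitates the deacetylated one. The comparison asks how the acetylation state of this residue bears on beige adipocyte differentiation. Both groups were selected with puromycin and were put for 2 days into the same beige induction medium, which held dexamethasone, insulin, T3, rosiglitazone, indomethacin and isobutylmethylxanthine. Dexamethasone acts on the glucocorticoid receptor and isobutylmethylxanthine raises cAMP, and both kinds of signal are known to induce *Per1* and to reset clocks in cultured cells. Each group has 3 libraries labelled as biological replicates. Whether these came from separate transductions or from cultures of 1 line is not given in the sources used here, so p-values measure the spread between these samples. No cells without a mutant, with wild-type PPARγ2 or without induction medium were analysed here, there was 1 time point, and the clock time of harvest is not given in the sources used here. A level at 1 time point cannot show a rhythm, so a shift in phase and a change in mean level cannot be told apart.

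Levels are given as TPM, transcript abundance corrected for transcript length and scaled so that all libraries sum alike, and differences as log2 fold changes of TPM + 0.5, K382Q minus K382R. A gene was called where the adjusted p-value (limma, Benjamini-Hochberg over 15426 genes) was under 0.05. The aligned sequence behind the libraries was inferred from the deposited values. It came to 5.96, 7.5 and 5.95 Gb for K382Q and to 7.79, 8.15 and 6.53 Gb for K382R. The median gene stood at -0.14 on this log2 scale, so a gene with no difference in TPM lay above the median gene, and 23.2% of all calls were higher with K382Q. With median-ratio scaling, which brings the median gene to 0.0039, that share was 49.3%.

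With K382Q, 5 of the 10 genes were higher (*Per1*, *Per2*, *Per3*, *Cry2* and *Nfil3*), 1 was lower (*Clock*), and 4 did not pass the test (*Cry1*, *Dbp*, *Tef* and *Hlf*). Among all tested genes, 11.1% were called higher and 36.9% lower. The median log2 fold change of the 10 genes was 0.24, and 9 of them, all but *Clock*, stood above the median gene. With median-ratio scaling 8 were called higher and 1 lower, against 19.9% and 20.4% of all tested genes. The libraries of the mutants did not overlap in TPM for 8 of the 10 genes, which was the case for 57.0% of all tested genes. None of the 10 passed the fold change over 2 that, with the adjusted p-value, defined differentially expressed genes in the study (3.88% of all tested genes did in these tables), while 8 of the 10 had an unadjusted p-value under 0.05 in limma, as did 54.2% of all tested genes.

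**Figure D1:**
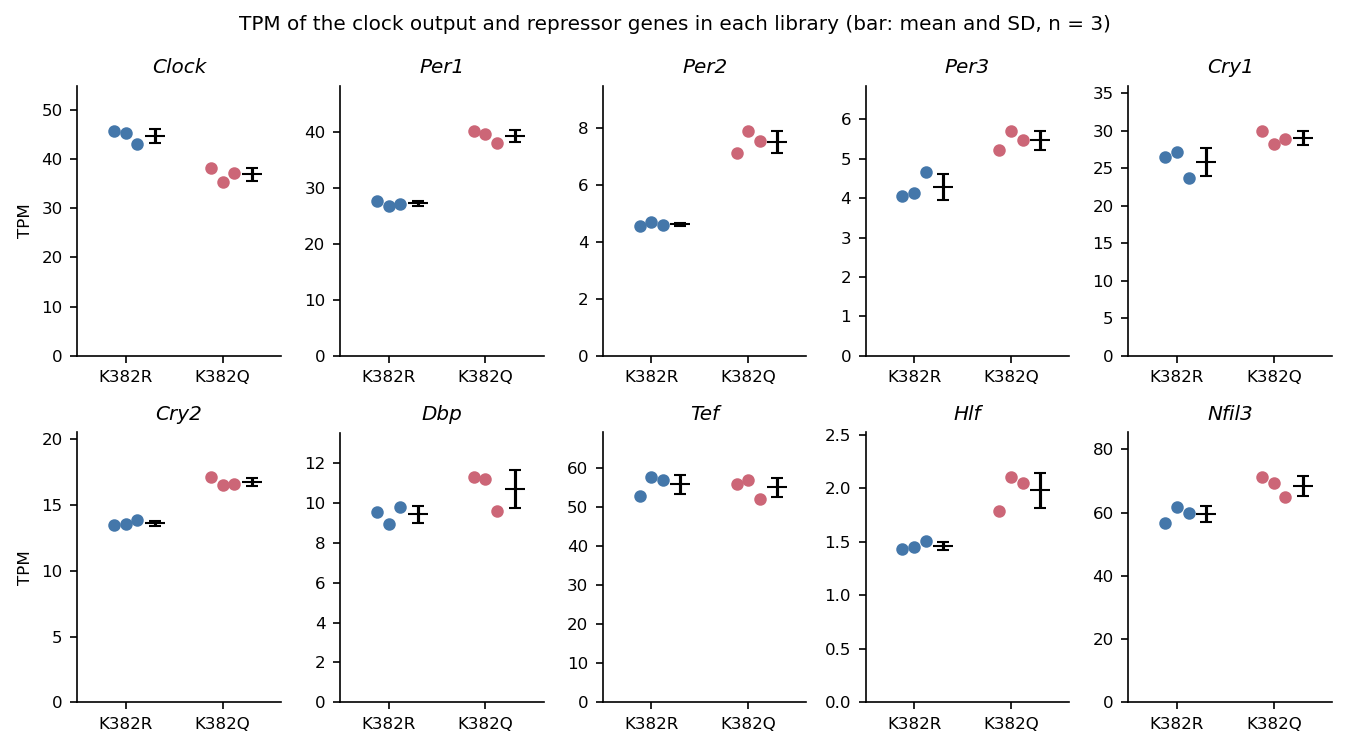
TPM of the 10 clock genes in each library, 1 panel per gene, with PPARγ2 K382Q- and PPARγ2 K382R-overexpressing cells side by side; points are libraries and lines are group means with their SD. The libraries of the groups are separated in every panel except those of *Dbp* and *Tef*, and *Clock* is the separated gene with its K382Q libraries below.

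*Per1* and *Per2* showed the largest differences. They encode the period proteins that also answer acutely to outside signals, and *Per2* is the member whose loss most disturbs rhythms in mice. *Per1* (ENSMUSG00000020893.18, GRCm39 chr11:68986043-69000786, plus strand) was at 40.1, 39.6 and 38.0 TPM in the K382Q libraries and at 27.7, 26.8 and 27.1 TPM in the K382R libraries. The lowest K382Q library was well above the highest K382R library, with means of 39.2 ± 1.11 and 27.2 ± 0.457 TPM (SD, n = 3 each). This was a log2 fold change of 0.52 (SE 0.041, 95% interval 0.42 to 0.61, adjusted p = 4.12e-05), a ratio of 1.44.

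*Per2* (ENSMUSG00000055866.10, GRCm39 chr1:91343704-91387046, minus strand) was at 7.13, 7.90 and 7.55 TPM in the K382Q libraries and at 4.57, 4.69 and 4.60 TPM in the K382R libraries. The groups were again apart, and the K382R libraries had a mean of 4.62 with an SD of only 0.064 TPM, against 7.53 ± 0.384 TPM (SD, n = 3 each) for K382Q. The log2 fold change of 0.65 (SE 0.078, 95% interval 0.47 to 0.83, adjusted p = 0.000341), a ratio of 1.63, was the largest of the 10 genes. *Per1* and *Per2* were called in each of the 17 alternative analyses, with log2 fold changes between 0.50 and 0.68 for *Per1* and between 0.60 and 0.79 for *Per2*.

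*Per3*, the period gene least needed for the core loop and one that often tracks clock output, differed less. *Per3* (ENSMUSG00000028957.13, GRCm39 chr4:151088109-151129122, minus strand) was at 5.21, 5.70 and 5.49 TPM in the K382Q libraries and at 4.06, 4.12 and 4.66 TPM in the K382R libraries. The groups did not overlap, but replicate 3 of K382R stood about midway between its own group's other libraries and the lowest K382Q library. The log2 fold change was 0.32 (SE 0.092, 95% interval 0.11 to 0.54, adjusted p = 0.0218). The call was lost when K382Q replicate 2 (adjusted p = 0.0682), K382Q replicate 3 (0.059), K382R replicate 1 (0.0683) or K382R replicate 2 (0.067) was left out, and without the filter on low values (0.0514). Its reads covered each base on average between 7.12 and 9.96 times, against 44.2 to 78.1 times for *Per1*.

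The cryptochromes are the strongest repressors of CLOCK and BMAL1. *Cry2* (ENSMUSG00000068742.12, GRCm39 chr2:92233991-92264388, minus strand) was at 17.1, 16.5 and 16.6 TPM in the K382Q libraries and at 13.4, 13.6 and 13.8 TPM in the K382R libraries. Every K382Q library was above every K382R library, and the log2 fold change was 0.29 (SE 0.050, 95% interval 0.17 to 0.41, adjusted p = 0.00217), a ratio of 1.23 that was called in all 17 alternatives. *Cry1* (ENSMUSG00000020038.11, GRCm39 chr10:84967564-85020928, minus strand) was at 30.0, 28.2 and 29.0 TPM in the K382Q libraries and at 26.5, 27.2 and 23.7 TPM in the K382R libraries. These ranges came within about 1 TPM of each other, and the K382R group was spread by the low value of its replicate 3. For *Cry1* the log2 fold change was 0.17 (SE 0.061, 95% interval 0.028 to 0.31, adjusted p = 0.0512). It did not pass the test, but was called in 6 of the 17 alternatives, among them median-ratio scaling (log2 fold change 0.32, adjusted p = 0.00426). Whether *Cry1* and *Cry2* differed from each other in their response was not tested.

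*Clock*, the activator, was the one member that fell. *Clock* (ENSMUSG00000029238.12, GRCm39 chr5:76357715-76452639, minus strand) was at 38.0, 35.4 and 37.1 TPM in the K382Q libraries and at 45.7, 45.2 and 43.1 TPM in the K382R libraries. All K382Q libraries were below all K382R libraries, and the log2 fold change was -0.27 (SE 0.044, 95% interval -0.38 to -0.17, adjusted p = 0.00151). Since the median gene stood at -0.14, *Clock* was 0.14 below it. With median-ratio scaling the log2 fold change was -0.12 (adjusted p = 0.0494), and with quantile normalization it was -0.11 and no longer called (adjusted p = 0.0856). In the coordinates of the tables *Clock* does not reach its neighbour *Tmem165* on the opposite strand, but in the GENCODE annotation of this build longer forms of both share 11.9% of the exon bases of *Clock*. *Tmem165* (41.7 to 62.3 TPM) was also lower, with a log2 fold change of -0.46 (adjusted p = 0.000107), and the part of its reads in the value of *Clock* was not tested.

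*Nfil3*, the D-box repressor, had the highest mean TPM of the 10 genes in both groups and was higher in PPARγ2 K382Q-overexpressing cells. *Nfil3* (ENSMUSG00000056749.8, GRCm39 chr13:53121245-53135109, minus strand) was at 71.1, 69.3 and 64.9 TPM in the K382Q libraries and at 56.9, 61.8 and 60.0 TPM in the K382R libraries. The groups did not overlap, although the lowest K382Q library and the highest K382R library lay closer together than the span of the libraries within either group. Its log2 fold change was 0.20 (SE 0.048, 95% interval 0.087 to 0.31, adjusted p = 0.0107), a ratio of 1.15, and it was called in all 17 alternatives.

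The PAR bZIP activators, which bind the same element as NFIL3, did not pass the test. *Dbp*, a direct E-box target with one of the widest daily swings known in mouse tissues, lies on GRCm39 chr7:45354512-45359627 (ENSMUSG00000059824.13, plus strand). It was at 11.3, 11.2 and 9.57 TPM in the K382Q libraries and at 9.52, 8.93 and 9.77 TPM in the K382R libraries. The groups overlapped, because K382Q replicate 3 lay among the K382R libraries. The log2 fold change was 0.17 (SE 0.083, 95% interval -0.021 to 0.36, adjusted p = 0.128), and without K382Q replicate 3 it was 0.24 and was called (adjusted p = 0.041). With median-ratio scaling it was 0.32 and was called as well (adjusted p = 0.0165). *Sphk2*, on the opposite strand, shares 15.5% of the exon bases of *Dbp* in the GENCODE annotation of this build, and reads there cannot be assigned, since the library kit is not stated to keep strand. *Sphk2* was expressed at 15.8 to 20.5 TPM, with a log2 fold change of -0.20 (adjusted p = 0.075), and the part of its reads in the value of *Dbp* was not tested.

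*Tef* (ENSMUSG00000022389.16, GRCm39 chr15:81686622-81711064, plus strand) was the most abundant of the PAR bZIP genes and the least different between the groups. It was at 56.0, 57.1 and 52.3 TPM in the K382Q libraries and at 53.0, 57.7 and 56.9 TPM in the K382R libraries. The groups overlapped over most of their range, and the log2 fold change was -0.020 (SE 0.049, 95% interval -0.13 to 0.095, adjusted p = 0.775). Its sign turned with the scaling: the log2 fold change was 0.13 with median-ratio scaling (adjusted p = 0.0674) and 0.14 with quantile normalization (adjusted p = 0.0398), which was the single alternative that called it.

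*Hlf* (ENSMUSG00000003949.17, GRCm39 chr11:90227362-90281721, minus strand) had the lowest level of the 10 genes. It was at 1.79, 2.10 and 2.05 TPM in the K382Q libraries and at 1.43, 1.46 and 1.50 TPM in the K382R libraries. Every K382Q library was above every K382R library, and the reads covered each base on average 1.63 to 2.85 times. The log2 fold change was 0.33 (SE 0.13, 95% interval 0.039 to 0.63, adjusted p = 0.0623). It did not pass the test and was called in 5 of the 17 alternatives, among them the fit without an intensity trend (adjusted p = 0.00773).

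**Figure D2:**
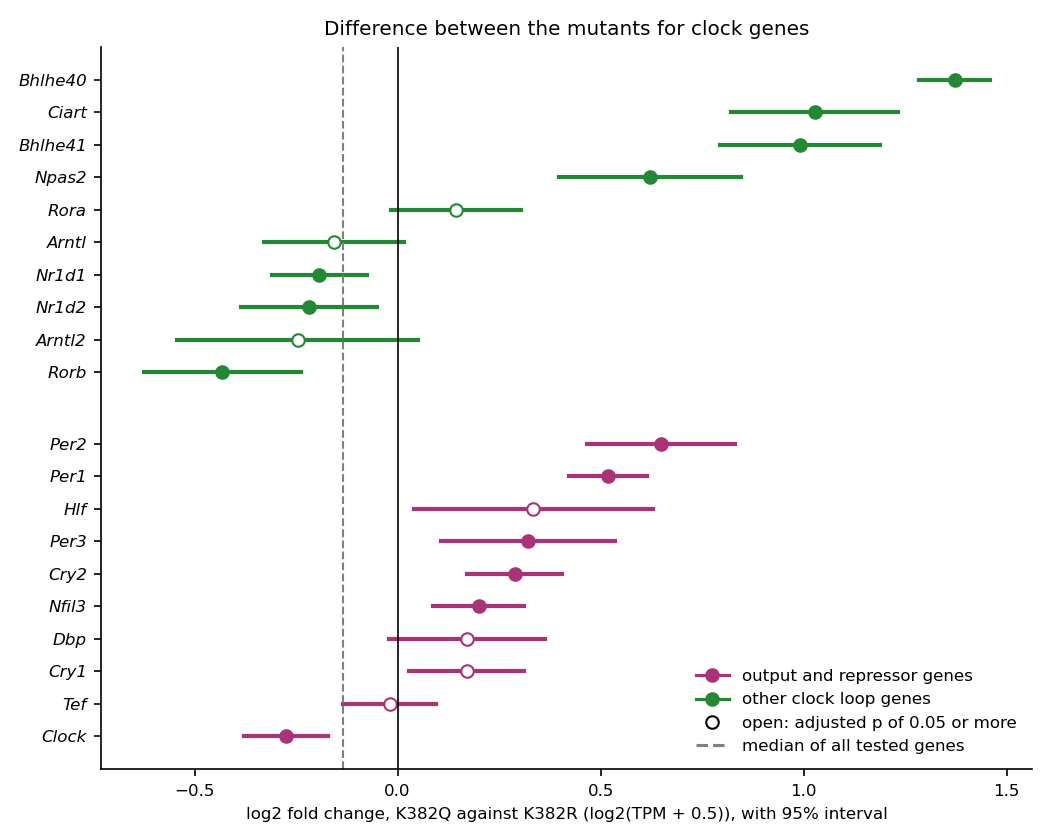
Log2 fold change (K382Q minus K382R) of the 10 clock genes and of the other genes of the clock loop, with 95% intervals and a line at the median of all tested genes; filled points were called at an adjusted p-value under 0.05. *Per2* and *Per1* lie farthest above the median gene among the 10, *Clock* lies below it, and *Bhlhe40* and *Ciart* exceed a log2 fold change of 1.

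The mutants also ordered the genes slightly differently by level. In PPARγ2 K382Q-overexpressing cells the mean TPM fell from *Nfil3* through *Tef*, *Per1*, *Clock*, *Cry1*, *Cry2*, *Dbp*, *Per2* and *Per3* to *Hlf*, and of these neighbours only *Per1* and *Clock* overlapped in their libraries. In PPARγ2 K382R-overexpressing cells *Clock* (44.6 TPM on average) stood above *Per1* (27.2 TPM) without overlap, and the pairs that overlapped were *Nfil3* with *Tef*, *Per1* with *Cry1*, and *Per2* with *Per3*. *Per1* was thus level with its activator's gene *Clock* in the former cells and below it in the latter. The 10 genes together came to between 262.5 and 277.7 TPM in the K382Q libraries and to between 242.8 and 251.5 TPM in the K382R libraries.

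The promoters of these genes are where the loop closes on itself, so the stretches that hold a clock element or a cAMP element are printed here. The GRCm38.p6 build was used for this, rather than GRCm39. RefSeq start sites were available in it for 9 of the 10 genes, all but *Per2*. The 250 bases before each of their 13 starts were searched on both strands for the E-box CACGTG, the D-box (TTATGTAA or TTACGTAA) and the cAMP response element (CRE) TGACGTCA. No match overlapped another. Capitals mark the match, and each stretch reads 5′ to 3′ on the strand of its gene.
Per1 (E-box, chr11:69098763-69098808, plus strand): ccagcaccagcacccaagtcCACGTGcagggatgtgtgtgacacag
Per3 (D-box, chr4:151044843-151044890, minus strand): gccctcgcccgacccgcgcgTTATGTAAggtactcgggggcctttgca
Per3 (D-box, chr4:151044796-151044843, minus strand): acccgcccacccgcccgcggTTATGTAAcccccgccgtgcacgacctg
Cry1 (E-box, chr10:85185089-85185134, minus strand): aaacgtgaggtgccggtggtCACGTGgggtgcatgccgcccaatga
Tef (E-box, chr15:81802526-81802571, plus strand): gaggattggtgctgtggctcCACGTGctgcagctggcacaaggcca
Tef (E-box, chr15:81811256-81811301, plus strand): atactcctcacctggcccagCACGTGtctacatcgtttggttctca
Hlf (CRE, chr11:90390918-90390946, minus strand): tcggcgcgcggtgcgggcccTGACGTCAc

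The E-box matches began 166 bases before 1 of the 2 starts of *Per1* (the stretch of its other start has none), 60 bases before that of *Cry1*, and 127 and 138 bases before the 2 starts of *Tef*. The D-box matches of *Per3* began 205 and 158 bases before its start, and the CRE match of *Hlf* 9 bases before its own. The E-box was thus in 4 of the 13 stretches, against 6.02% of the 32851 stretches of all genes in the table. The D-box was in 1 stretch (0.931% of all) and the CRE in 1 (1.55% of all). The genes with an E-box match had log2 fold changes of 0.52 (*Per1*), 0.17 (*Cry1*) and -0.020 (*Tef*). With median-ratio scaling these were 0.67, 0.32 and 0.13, and *Tef* was called on neither scale. Whether a match went with the response was not tested. These letters are not in the 250-base stretches of *Clock*, *Cry2*, *Dbp* and *Nfil3*. A match is a string of letters and no measured binding site.

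Of the clock genes, 7 were also set against *Arntl*, the symbol used here for the gene of BMAL1. The log2 ratios of TPM + 0.5 were taken within each library and depend little on the scaling of the library. *Clock*, *Tef* and *Hlf*, with log2 fold changes of -0.27, -0.020 and 0.33, were not set against *Arntl*. *Arntl* itself was at 14.2 ± 1.12 TPM in PPARγ2 K382Q- and 15.9 ± 0.828 TPM in PPARγ2 K382R-overexpressing cells (SD, n = 3 each), with a log2 fold change of -0.16 (adjusted p = 0.122). The *Per2* to *Arntl* ratio was -1.01, -0.86 and -0.74 in the K382Q libraries and -1.72, -1.71 and -1.60 in the K382R libraries. It was higher by 0.80 in the former, the largest of these differences. The *Per1* to *Arntl* ratio was higher by 0.68, that of *Per3* by 0.48, *Cry2* by 0.45, *Nfil3* by 0.36, *Dbp* by 0.33 and *Cry1* by 0.33. The groups did not overlap in any of these 7 ratios. *Arntl* itself was lower in every K382Q library than in any K382R library, which raises each ratio to it with K382Q. *Dbp*, for 1, overlapped between the groups in TPM but not in its ratio to *Arntl*. Among all tested genes, 57.0% did not overlap in TPM, and the share for ratios to *Arntl* is not given here. Each of the 7 ratios had a two-sided exact permutation p of 0.1 (adjusted p = 0.114 over 8 ratios), the smallest that 3 libraries against 3 allow. All 7 share the values of *Arntl* and are not independent of one another.

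The D-box activators were also set against the repressor *Nfil3*, and whether their ratios to it differed from one another was not tested. On the same scale, the log2 ratio of *Dbp* to *Nfil3* was -2.61, -2.58 and -2.70 in the K382Q libraries and -2.52, -2.72 and -2.56 in the K382R libraries. The groups overlapped, with a difference of -0.029 (exact permutation p = 0.7, adjusted p = 0.7). *Tef*, the most abundant of the activators, was set against *Nfil3* after the values had been seen, so its ratio is given with no test. As a plain ratio of TPM it was 0.787, 0.824 and 0.805 in the K382Q libraries and 0.933, 0.932 and 0.949 in the K382R libraries. The K382Q libraries were the lower without overlap, and so they were for the sum of *Dbp*, *Tef* and *Hlf* over *Nfil3* (0.99 against 1.12 on average), most of which is *Tef*. *Tef* itself overlapped between the groups in TPM (log2 fold change -0.020), while *Nfil3* was higher with K382Q (0.20). Among all tested genes, 57.0% did not overlap in TPM, and the share for ratios to *Nfil3* is not given here. The ratio of *Hlf* to *Nfil3* overlapped between the groups, at 0.029 with K382Q and 0.0246 with K382R on average.

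**Figure D3:**
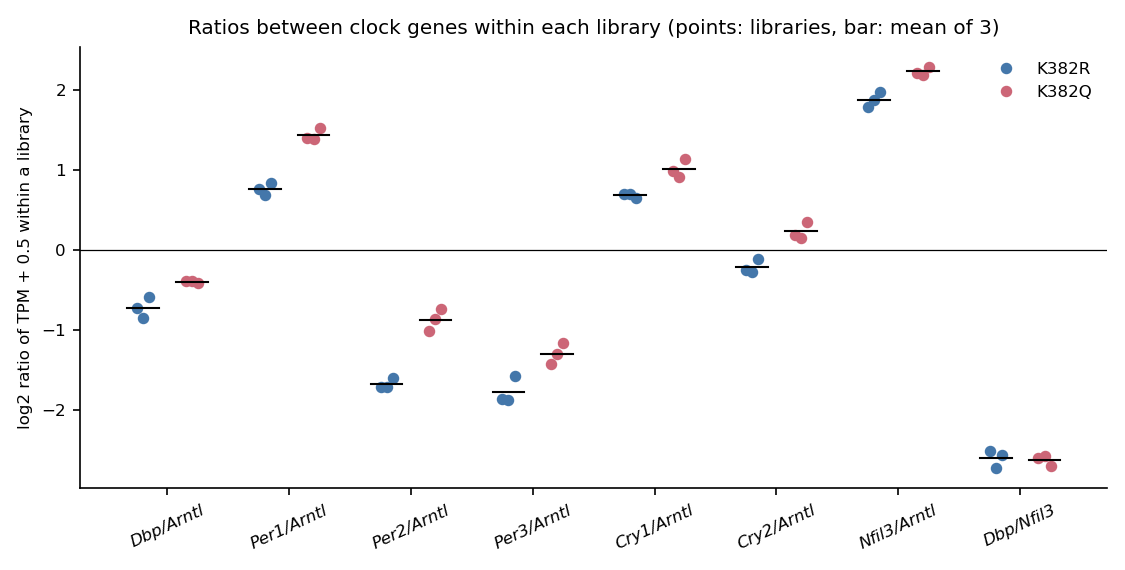
Log2 ratios of TPM + 0.5 within each library for 7 of the clock genes over *Arntl* and for *Dbp* over *Nfil3*. Points are libraries and lines are group means. The 7 ratios to *Arntl* are higher in each K382Q library than in any K382R library, and the *Dbp* to *Nfil3* ratio overlaps between the groups.

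The other genes of the loop were read beside the 10 members, and some had larger log2 fold changes than any of them. Of 10 such genes, all tested, 4 were called higher with K382Q, 3 were lower and 3 did not pass the test, against 11.1% higher and 36.9% lower among all tested genes. Their median was -0.0064 on the log2 scale. With median-ratio scaling it was 0.14, and 5 were called higher and 1 lower, against 19.9% and 20.4% of all tested genes. Of the 4 higher genes, 3 encode repressors of the loop. *Bhlhe40*, whose product DEC1 competes with CLOCK and BMAL1 for E-boxes, was at 130.0, 126.7 and 120.7 TPM in the K382Q libraries and at 48.0, 49.0 and 47.9 TPM in the K382R libraries (log2 fold change 1.37, adjusted p = 3.77e-07). Its relative *Bhlhe41* (DEC2) rose from 6.62 ± 0.593 to 13.6 ± 0.785 TPM (log2 fold change 0.99, adjusted p = 6.02e-05). *Ciart*, which encodes the repressor CHRONO, rose from 18.0 ± 1.94 to 37.1 ± 2.85 TPM (log2 fold change 1.03, adjusted p = 6.21e-05).

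The ROR nuclear receptors activate *Arntl* through RORE elements. *Rorb* fell by 0.43 on the log2 scale (4.68 against 6.48 TPM, adjusted p = 0.00366). *Rora* was at 7.97 and 7.17 TPM and did not pass the test (log2 fold change 0.14, adjusted p = 0.124), but was called with median-ratio scaling (0.29, adjusted p = 0.0116) and in 4 of the 17 alternatives in all. The REV-ERB repressors, which act on the same elements as the ROR proteins, were slightly lower on the TPM scale. *Nr1d1* had means of 33.4 and 38.2 TPM (log2 fold change -0.19, adjusted p = 0.0147), and *Nr1d2* had means of 13.9 and 16.2 TPM (log2 fold change -0.22, adjusted p = 0.038). Neither was called with median-ratio scaling (-0.043 with adjusted p = 0.514, and -0.071 with adjusted p = 0.459), and *Nr1d2* was called in only 6 of the 17 alternatives. The call of *Nr1d1* was also lost without K382Q replicate 3 (adjusted p = 0.0518) and without K382R replicate 2 (0.0526), and that of *Nr1d2* without any 1 of K382Q replicate 1 or 2 or the 3 K382R replicates (adjusted p = 0.0503 to 0.118).

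Among the activators, *Npas2*, a paralogue of *Clock* that can stand in for it, moved against *Clock*. It was at 6.67 ± 0.632 TPM in PPARγ2 K382Q- and 4.15 ± 0.166 TPM in PPARγ2 K382R-overexpressing cells (SD, n = 3 each), a log2 fold change of 0.62 (adjusted p = 0.00119). Its reads covered each base only 0.582 to 1.13 times on average, and it fell under the filter when coverage, scaled to the level of the TPM, took the place of TPM. *Arntl2* (4.48 and 5.39 TPM, log2 fold change -0.25, adjusted p = 0.152) overlapped between the groups.

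**Figure D4:**
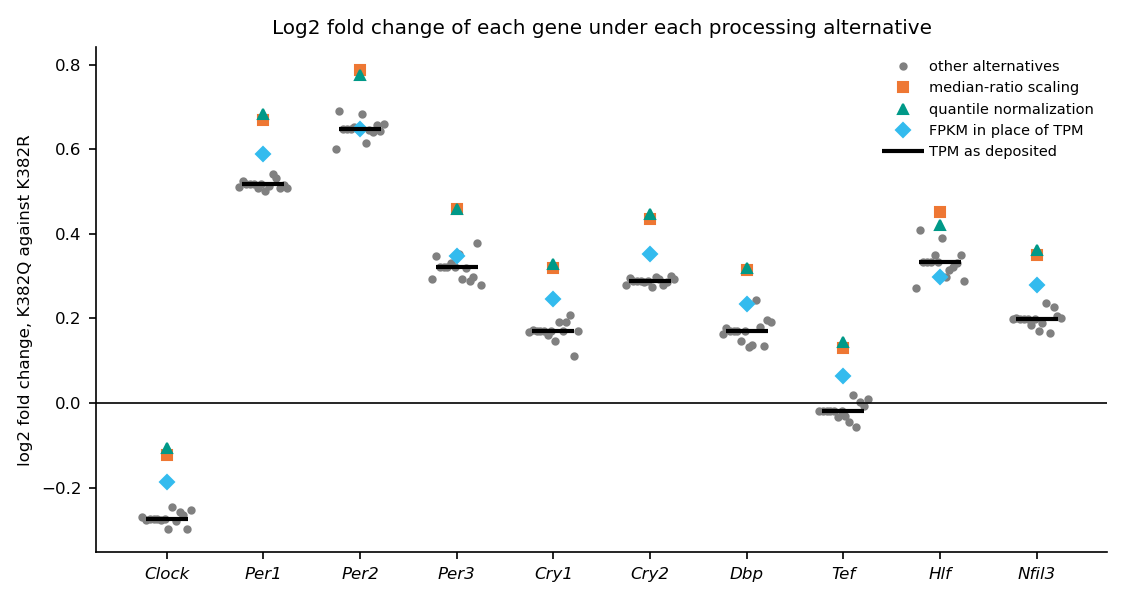
Log2 fold change (K382Q against K382R) of each of the 10 clock genes, with a bar for TPM as deposited, an orange square for median-ratio scaling, a green triangle for quantile normalization, a blue diamond for FPKM and grey points for the other alternatives. Median-ratio scaling and quantile normalization lie above the bar for every gene, *Clock* stays below 0 in each of the 17 alternatives, and *Tef* falls on both sides of 0.

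PER and CRY proteins are also controlled after translation. Casein kinases mark PER for degradation through the ligases β-TrCP (*Btrc*, *Fbxw11*), and further ligases and proteases act on both proteins. Of 10 such kinase, ligase and protease genes, 4 were lower in PPARγ2 K382Q-overexpressing cells, none was higher (also none at an unadjusted p-value under 0.05 in limma), and 6 did not pass the test. Among all tested genes 36.9% were called lower, close to the share in this list. Their median was -0.10, next to -0.14 for all genes. *Csnk1e*, the gene of casein kinase 1ε, fell by 0.48 on the log2 scale (44.5 ± 1.86 against 62.4 ± 0.557 TPM, adjusted p = 5.25e-05). *Csnk1d* fell by 0.26 (84.7 ± 0.237 against 101.8 ± 2.99 TPM, adjusted p = 0.000406) and *Fbxw11* by 0.20 (47.9 ± 1.92 against 55.2 ± 2.75 TPM, adjusted p = 0.0112). With median-ratio scaling, *Csnk1e* and *Csnk1d* were the only genes of this list still called.

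Since the induction medium acts through the glucocorticoid receptor and cAMP, both of which can induce *Per1*, other genes induced by these signals were read beside it. Of 9 glucocorticoid-induced genes, 7 had a higher level with K382Q and 2 a lower level (11.1% and 36.9% of all tested genes). The median of this list was 0.42 on the log2 scale. *Hsd11b1*, which encodes the enzyme that regenerates active glucocorticoid inside fat cells, rose from 11.8 ± 0.306 to 27.1 ± 1.42 TPM (log2 fold change 1.17, adjusted p = 4.14e-06). The lower genes were *Sgk1*, a kinase gene (log2 fold change -0.79, adjusted p = 9.79e-06), and *Cebpd*, an early adipogenic factor gene (-0.63, adjusted p = 0.000335). Of 9 cAMP-induced genes tested out of 10 listed, 1 was higher and 6 were lower (11.1% and 36.9% of all tested genes). Their median was -0.41, against -0.14 for all tested genes. *Junb* fell by 0.84 on the log2 scale (adjusted p = 3.48e-06), *Pde4b*, a cAMP phosphodiesterase gene, fell by 0.90 (adjusted p = 0.00114), and its relative *Pde4d* rose by 0.71 (adjusted p = 7.81e-05). *Pde4b* and *Pde4d* rested on fewer than 1 read per base, and with coverage in place of TPM they did not pass the filter and 3 genes of this list were called, all lower. *Per1* thus moved in the direction of most of the glucocorticoid list and against most of the cAMP list, and the part of either signal in its level was not tested.

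By their profile over the 6 libraries, the genes most like *Per2* were *Mif*, *Pgam1-ps2* and *Gpi1*, at Euclidean distances of 0.0454, 0.0693 and 0.0849 between centred log2 values, among tested genes with a mean of at least 5 TPM. Their log2 fold changes were 0.63, 0.60 and 0.69, next to 0.65 for *Per2*. *Pgam1-ps2* is a pseudogene whose reads may come from *Pgam1*. A likeness over 6 libraries in 2 groups mainly reflects a shared difference between the groups.

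Markers moved between the groups as well. In bulk RNA, fewer cells of a type and less RNA per cell cannot be told apart. *Pparg*, whose reads come from the transgene and the cells' own gene together, was lower in PPARγ2 K382Q-overexpressing cells (1200 ± 118.6 against 1611 ± 21.1 TPM, log2 fold change -0.43, adjusted p = 0.000977). This is RNA, and for protein the study reports a largely similar overexpression of both mutants by Western blot. Of 9 adipocyte markers, 8 were tested, of which 4 were higher and 3 lower (11.1% and 36.9% of all tested genes), and their summed level was 53270 to 57160 TPM in the K382Q and 43890 to 45150 TPM in the K382R libraries, with *Lep* at 0 throughout. Most of this sum was *Fabp4* (47890 against 37840 TPM on average), while *Adipoq* (log2 fold change -1.28, adjusted p = 7.63e-07) and *Cebpa* (-0.81, adjusted p = 3.95e-05) were lower with K382Q. Of 8 progenitor and fibroblast markers, 5 were tested and all 5 were lower (36.9% of all tested genes), with sums of 568.8 to 613 TPM and 935.6 to 974.2 TPM. *Dpp4* was at 0 throughout. The part of these shifts in the clock genes was not tested. Of 5 leukocyte markers only *Cd68* passed the filter, with sums of 3.44 to 4.66 and 3.20 to 5.11 TPM, and *Adgre1* and *Cd3e* were at 0. Of 4 endothelial markers only *Pecam1* passed it, with sums of 1.57 to 2.23 and 1.69 to 1.82 TPM.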

How the data were processed

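Per the labels and the study's methods, adapters were removed, HISAT2 placed the reads on GRCm39, and StringTie gave the gene values. The annotation release is not given in the sources used here. Each of the 6 deposited tables holds, per gene, the authors' coverage (mean reads per base), FPKM and TPM. StringTie sums TPM over isoforms, so genes with many isoforms can differ between coverage and TPM. The tables hold no counts, so no count test was run.

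Rows with a repeated gene ID were summed. Genes with at least 0.5 TPM in at least 3 of 6 libraries were kept, and log2(TPM + 0.5) was tested with limma 3.58.1 (R 4.3.3, intensity trend, Benjamini-Hochberg over 15426 genes), after a check on simulated data. Fold changes on this scale understate low genes. The 10 members and all lists were chosen with earlier results of these data known. Some genes of the lists are not reported here and were taken out of their counts. All members and other tested loop genes were named, with the 3 called genes of largest absolute change from the enzyme, glucocorticoid and cAMP lists. Single marker genes were named after their values were seen. Ratios were tested with exact permutation tests. The 17 alternatives are described in the closing section. Same-numbered libraries were not taken as pairs.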

Additional observations from a re-analysis of the deposited data

How the results depend on the processing

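Beside the reported analysis, settings were changed 1 at a time: the pseudocount (1 or 0.1), the filter (none, or TPM of 1 or more in 3 libraries), the unit (FPKM), the scaling (median-ratio or quantile), the variance model (no trend, or array weights), a block for the replicate number, and the omission of single libraries. Coverage in place of TPM was added after seeing the data. It was scaled to the level of the TPM by 1 factor per library and then filtered at the same 0.5, so the set of tested genes changed too (15691 in place of 15426, where *Npas2*, *Pde4b* and *Pde4d* fell out). FPKM met the same filter unscaled, which left 13419 genes. Of the 10 clock genes, 5 were called higher, against 8 with FPKM, 8 with median-ratio scaling and 9 with quantile normalization, and 4 to 5 with a library left out. The 1 called lower became 0 with quantile normalization. Of the 4 kinase and ligase genes called, 2 were called with FPKM, 2 with median-ratio scaling and 2 with quantile normalization. Of the 7 cAMP-induced genes called, 3 were called with coverage. *Tef* turned positive with FPKM (0.0631), median-ratio scaling (0.131), quantile normalization (0.145) and coverage (0.00924), and ranged from -0.056 to 0.018 with a library left out. *Arntl* was at 0.0113 with quantile normalization. The *Dbp* to *Nfil3* difference ranged from -0.091 to 0.013 with a library left out. The cause of these changes was not tested. With the replicate block, 5 of the clock genes were higher and 1 lower, as without it, and 6 of the other loop genes were called in place of 7 (*Nr1d2* lost, adjusted p = 0.0767). Over all tested genes, 1717 higher and 5698 lower calls became 3064 and 3148 with median-ratio scaling and 2954 and 3241 with quantile normalization. The 599 genes past 2-fold became 377 with FPKM, 443 with a pseudocount of 1 and 889 with a pseudocount of 0.1. Same-numbered libraries had correlations of -0.018 to 0.051, and 3 of 6 correlated best with their own number. Among the 10 clock genes coverage was lowest for *Hlf*, at 1.63 to 2.85 reads per base, and with 3 libraries a group the exact tests of the ratios cannot go below 0.1.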
